A study of Mus musculus with 8 samples.

Results

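Vimentin (Vim) was set beside 9 genes of stromal matrix and smooth muscle in crypt cultures of Lgr4 null mice: decorin (Dcn), lumican (Lum), the collagen chains Col1a1, Col1a2 and Col3a1, the receptor Pdgfra, and the smooth muscle genes Acta2, Des and Myh11. The platform's gene table assigns 28 probes to these 10 genes of the 15123 measured. Gene values, ranks and tests use standard probes only, so 12 control-series probes of Vim do not enter them unless stated. The genes are listed by symbol, and the set was chosen by measured values, the ratios at day 0 and day 1. The reason was that Vim was higher at day 1 than at day 0 and other stromal genes did not follow it. The values of the 10 genes at these times, and the difference between them, are therefore given as a description without a test. The tests on the 10 genes are those of day 0.5 and of day 1 with LiCl. Their fit also draws on the day 0 and day 1 arrays for its estimate of the spread. The tests are therefore not fully independent of the choice of genes.

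On each of 8 arrays, crypt RNA of Lgr4 null mice was hybridised in 1 dye together with wild-type crypt RNA in the other. For the LiCl arrays the sources differ on that second RNA: the culture labels of both arrays give wild type with LiCl, 1 of the 2 source names leaves LiCl out, and the series text speaks of control cells, so a LiCl ratio may not be against wild type under the same treatment. The null mice carry the gene trap allele Lgr4/Gpr48Gt, back-crossed to CD1, and the wild-type mice are CD1 as well. The Lgr4 receptor binds R-spondins, which raise Wnt signalling. The 4 groups, of 2 arrays each, are null crypts at the start of culture (day 0), after 0.5 days (day 0.5), after 1 day (day 1), and after 1 day in the presence of the GSK3 inhibitor LiCl. A gene trap in the germline is carried by every cell, so epithelial and stromal cells of the null crypts both have it. The labels give no age or LiCl dose, and nothing in them tells if the arrays of a group came from separate animals or cultures, so p-values measure only the spread between arrays, possibly technical. Every value below is a log2 ratio of null over wild type (with LiCl, over that second RNA), centred on the median of its array. That direction is likely from the labels, and base 2 is assumed. With LiCl the direction is not settled, because these arrays correlated with the arrays of the other groups at -0.49 to -0.09. Such ratios hold no level, so it could not be checked how much stromal RNA the crypts contained.

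Intestinal crypts are epithelial glands that sit in a stroma of fibroblasts, smooth muscle cells, vessels, nerves and leukocytes. Fibroblasts make fibrillar collagens and small proteoglycans such as decorin and lumican, which bind collagen fibrils and control their spacing. Smooth muscle cells contain alpha smooth muscle actin (Acta2), the muscle filament protein desmin (Des) and smooth muscle myosin heavy chain (Myh11). Vimentin is a type III intermediate filament protein, as desmin is, but fibroblasts, endothelial cells and leukocytes all make it, so it does not mark a single stromal cell type.

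Promoter sequences were found in the RefSeq table (GRCm38.p6) for 6 of the 10 genes. The 250 bases before the start of Vim (chr2:13574061-13574310, plus strand) and of Des (chr1:75360042-75360291, plus strand) are shown because these 2 genes encode filament proteins of the same class and had different ratios over the arrays. Capitals mark exact matches to the motifs searched on both strands. These were the TATA box TATAAA, the GC box GGGCGG, the AP-1 motif TGANTCA, the TCF motif CTTTGA and the CArG box CCWWWWWWGG. N is any base and W is A or T.
Vim: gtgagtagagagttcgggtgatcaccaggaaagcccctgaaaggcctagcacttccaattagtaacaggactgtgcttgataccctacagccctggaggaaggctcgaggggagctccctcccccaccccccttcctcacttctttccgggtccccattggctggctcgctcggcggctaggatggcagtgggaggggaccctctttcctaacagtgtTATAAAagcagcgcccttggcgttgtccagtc
Des: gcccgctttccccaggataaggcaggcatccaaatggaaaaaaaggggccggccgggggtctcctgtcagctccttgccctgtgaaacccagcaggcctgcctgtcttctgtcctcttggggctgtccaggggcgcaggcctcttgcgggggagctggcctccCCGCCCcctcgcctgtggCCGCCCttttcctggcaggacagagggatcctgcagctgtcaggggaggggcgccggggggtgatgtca
The Vim sequence holds TATAAA at positions -32 to -27 from the start, a motif in 12.4% of 32851 promoters of this length. The Des sequence holds GGGCGG on the minus strand at -87 to -82 and at -69 to -64, and 32.7% of the promoters hold that motif. TGANTCA is in 6.75%, CTTTGA in 13.8% and the CArG pattern in 1.47% of the promoters. None of these 3 was matched exactly in the 6 member promoters. A near match to the CArG pattern, such as ccctatatgg in the Acta2 promoter, was not counted. The matches describe letters only.

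Vim was below 0 at day 0 and above 0 at day 0.5 and at day 1. Its ratios were -0.68 and -0.49 at day 0, 0.65 and 0.69 at day 0.5, 0.86 and 1.17 at day 1, and 0.04 and -0.03 at day 1 with LiCl. The arrays of day 0 did not overlap those of day 0.5 or day 1, and the LiCl arrays lay between them on either side of 0. The group means were -0.58 ± 0.14, 0.67 ± 0.03, 1.02 ± 0.22 and 0.00 ± 0.05 (SD, n = 2 each). In the likely direction, null crypts had 1.50-fold less Vim RNA than wild type at day 0 and 2.02-fold more at day 1. The difference between these days was 1.60, or 3.03-fold, and 51 of the 15123 genes had a larger one. At day 0, 200 genes had a lower mean ratio than Vim. At day 1, 322 genes had a higher one. With LiCl the mean was 1.01 below that of day 1, and 1.02 below it with the sign of the LiCl arrays turned.

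The array holds 14 probes for Vim, of which 2 are standard probes and 12 belong to control series that were left out of the gene's value. The standard probe mMA034178 read -0.56 and -0.42 at day 0, 0.78 and 0.62 at day 0.5, 0.70 and 1.40 at day 1, and 0.14 and -0.17 with LiCl. The standard probe mMC000916 read -0.80 and -0.55 at day 0, 0.52 and 0.76 at day 0.5, 1.02 and 0.94 at day 1, and -0.07 and 0.10 with LiCl. Both probes had the same order of groups, with a correlation of 0.913 over the 8 arrays. Of all 14 probes, 11 had a day 1 mean above their day 0 mean by 0.70 to 1.66, and in each of these both day 1 arrays lay above both day 0 arrays. The other 3 (mCA000707, mCA001472 and mCT000247) differed by -0.20 to 0.08. The median difference over all 14 probes was 1.22, below the 1.60 of the gene's value from its 2 standard probes. Both day 0.5 arrays lay above both day 0 arrays in 12 probes.

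**Figure D1:**
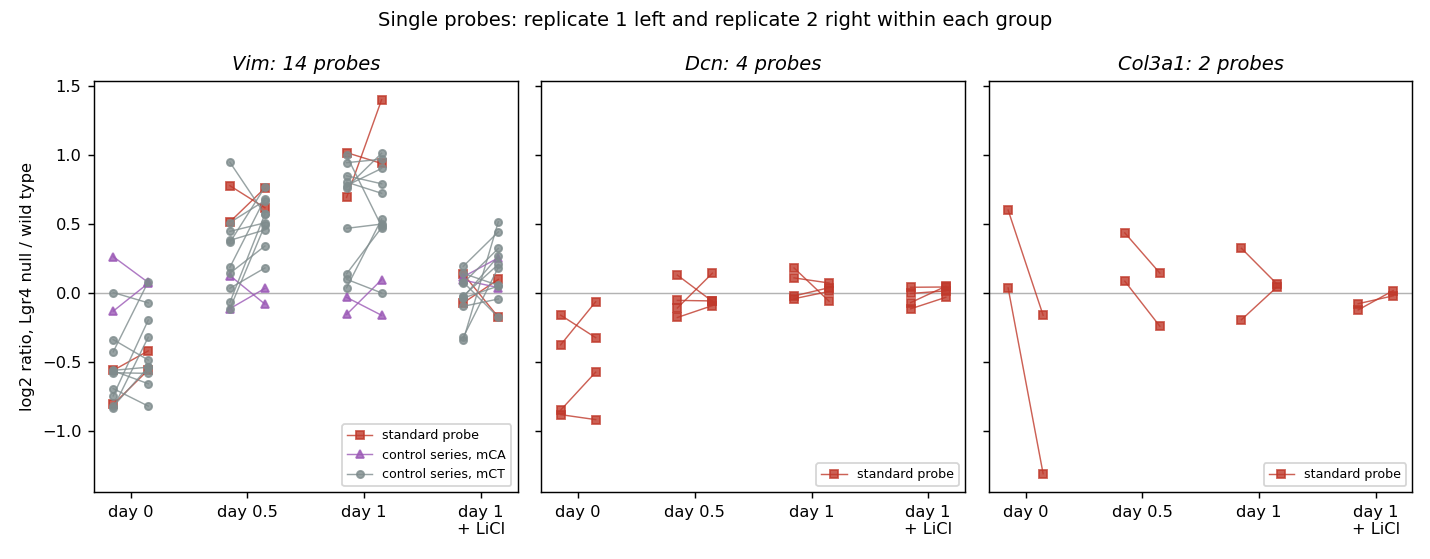
Log2 ratio (null over wild type, vertical axis) of single probes of Vim, Dcn and Col3a1 in the 4 groups; lines join the 2 arrays of a group for 1 probe, and symbols mark standard and control-series probes. Of 14 Vim probes 11 lie higher at day 1 than at day 0 by at least 0.70, all 4 Dcn probes are below 0 at day 0, and 1 Col3a1 probe reads -1.31 on the second day 0 array.

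Among the matrix genes, Dcn was the other member with both day 0 arrays on one side of 0 and both day 1 arrays on the other. Its ratios were -0.56 and -0.47 at day 0, -0.05 and -0.01 at day 0.5, 0.06 and 0.02 at day 1, and -0.03 and 0.02 with LiCl. Dcn was low in null crypts at day 0 and near 0 afterwards, without ratios as high as those of Vim. The day 1 mean lay 0.55 above the day 0 mean, and the correlation with Vim over the 8 arrays was 0.816. Its 4 probes read from -0.91 to -0.06 at day 0, with mMR030315 lowest at -0.88 and -0.91.

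Lumican, the second proteoglycan, read -0.32 and -0.13 at day 0, 0.16 and -0.12 at day 0.5, -0.11 and -0.14 at day 1, and 0.27 and -0.11 with LiCl. Col1a1 and Col1a2 encode the chains of type I collagen. Col1a1 read -0.09 and -0.13 at day 0, -0.12 and 0.24 at day 0.5, 0.05 and -0.08 at day 1, and 0.16 and 0.03 with LiCl. Col1a2 read -0.36 and -0.15 at day 0, -0.01 and 0.18 at day 0.5, -0.15 and -0.14 at day 1, and 0.01 and -0.03 with LiCl. All 3 were below 0 on both day 0 arrays, and only Col1a1 had a day 1 array above 0. Col3a1, the chain of type III collagen, read 0.32 and -0.73 at day 0, 0.26 and -0.04 at day 0.5, 0.07 and 0.06 at day 1, and -0.10 and 0.00 with LiCl. Its day 0 arrays differed by 1.05, against a median of 0.176 over all genes, so no day 0 value can be given for it. The probe mMC019473 read -1.31 on day 0 replicate 2, while mMC007483 read -0.16 there, and the 2 probes correlated at 0.256.

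Pdgfra, a receptor for platelet-derived growth factor that marks fibroblasts, read 0.00 and -0.02 at day 0, 0.17 and -0.66 at day 0.5, -0.07 and 0.54 at day 1, and -0.05 and -0.19 with LiCl. Its arrays lay on opposite sides of 0 at day 0.5 and at day 1, differing by 0.833 and 0.609. The group means of the smooth muscle genes ran from -0.19 (Myh11 with LiCl) to 0.14 (Myh11 at day 0.5). Acta2 read -0.04 and 0.19 at day 0, -0.02 and -0.06 at day 0.5, -0.06 and -0.01 at day 1, and 0.02 and -0.01 with LiCl. Desmin read 0.16 and -0.18 at day 0, -0.05 and 0.01 at day 0.5, 0.02 and 0.17 at day 1, and 0.06 and -0.02 with LiCl. Myh11 read 0.10 and -0.10 at day 0, 0.23 and 0.04 at day 0.5, 0.08 and -0.03 at day 1, and -0.35 and -0.04 with LiCl. The day 0 arrays of each of these 3 genes lay on both sides of 0. In such bulk RNA, fewer cells of a type and less RNA per cell cannot be told apart.

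**Figure D2:**
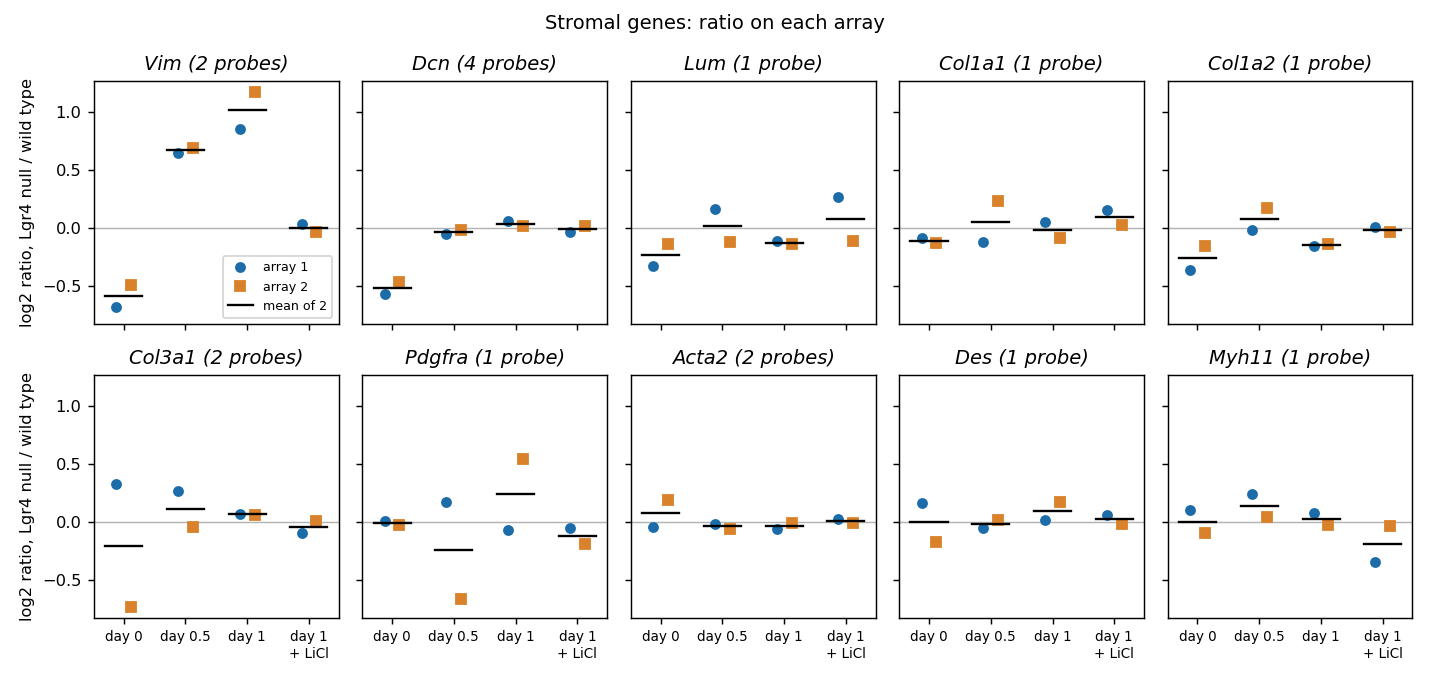
Log2 ratio (null over wild type, vertical axis) of the 10 genes on each array, by group; points are arrays and bars the mean of 2. Vim lies at -0.68 and -0.49 at day 0 and at 0.86 and 1.17 at day 1, Dcn is below 0 at day 0, and the day 1 means of the other 9 genes lie between -0.14 and 0.24.

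Over the 10 genes the median ratio was -0.16 at day 0, 0.04 at day 0.5, 0.03 at day 1 and 0.00 with LiCl, beside -0.01, 0.00, 0.00 and 0.00 over all genes. The median size of the ratio was 0.157 in the 10 genes and 0.112 in all genes at day 0, and 0.0794 and 0.145 at day 1. The day 1 mean minus the day 0 mean had a median of 0.11 over the 10 genes, against 0.00 over all genes. The set was chosen on this difference. Apart from Vim and Dcn, it ran from -0.11 ± 0.13 (SE) in Acta2 to 0.27 ± 0.26 in Col3a1. The Col3a1 value is not reliable, because its day 0 arrays differed by 1.05 and its probes changed by -0.02 and 0.56. It also enters the medians of the 10 genes.

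At day 0.5, limma with Benjamini-Hochberg adjustment over all genes called 1 of the 10 genes, Vim, where it called 0.436% of all genes in either direction and 0.278% as higher. The fitted Vim ratio, with a term for the dye, was 0.77 ± 0.11 (SE), or 1.70-fold higher in null crypts, with an adjusted p of 0.0483 and both arrays above 0. Both day 0.5 arrays carried the null RNA in Cy5, as labelled, so the fitted value differs from the mean of the arrays, 0.67. The series text speaks of dye swaps, which conflicts with these labels. With replicate 2 taken as Cy3 the Vim value was 0.67, with a limma adjusted p of 0.0226. In the main fit the dye term came from the other groups, among them day 0 and day 1, whose values the choice of genes used. The fitted 0.77 is therefore not fully independent of that choice. Leaving out any 1 of the 8 arrays kept the value at 0.74 to 0.80 but moved the limma adjusted p to 0.0791 to 0.211, so the call rests on all 8 arrays. With all 14 probes averaged the value was 0.40 and the limma adjusted p 0.242. The other 9 genes had fitted ratios from -0.13 to 0.13, with limma adjusted p from 0.756 to 0.981.

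At day 1 with LiCl, limma called 0 of the 10 genes, and 0 at an unadjusted p under 0.05, where 2.58% of all genes were called and 13.7% passed unadjusted. Vim had a ratio of 0.00 ± 0.10 (SE). The remaining ratios ran from -0.19 in Myh11, with a limma adjusted p of 0.531, to 0.10 in Col1a1, and turning the sign of these arrays gives 0.19 and -0.10.

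Further genes were taken from 4 stromal lists of fibroblast matrix, collagen processing, niche signals and smooth muscle. They hold 80 genes besides the 10 members, 74 of them measured. These and all later lists were made with earlier results of these data known, so their shares of calls are a description. Limma called 0 of the 74 at day 0, against 2.23% of all genes in either direction and 1.01% as lower, and 0 at day 0.5. At an unadjusted p under 0.05, 9 of the 74 passed at day 0 and 7 at day 0.5, where 15.0% and 12.1% of all genes did. With the replicate number as a block, 2 were called at day 0.5, P4hb at 0.76 and Mmp14 at 0.96, and 3 with LiCl. Genes named here and below for a call gained under this block were picked after their values were seen. Without the block, limma called 7 of the 74 at day 1, all higher in null crypts. This is 9.46%, against 20.5% of all genes, with 9.38% higher and 11.1% lower. The change between day 0 and day 1 was called in 5, all upward, or 6.76% against 8.39% of all genes, of which 3.6% changed upward and 4.79% downward. The medians of the 74 genes were -0.02 at day 0, 0.04 at day 0.5 and -0.01 at day 1. With LiCl 1 gene was called, P4hb at -0.63, or 0.63 with the sign turned. Without either day 1 array 2 were called at day 1. For the change, 0 were called when either day 0 array was left out and 1 when either day 1 array was.

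In the fibroblast matrix list, 2 of 26 genes were called at day 1, or 7.69% against 20.5% of all genes. The calcium-binding protein S100a4 read -0.35 and -0.59 at day 0 and 0.59 and 0.66 at day 1, a change of 1.10 (limma adjusted p = 0.00725). The matrix protein fibulin 1 (Fbln1) was above 0 at both times, with a fitted ratio of 0.65 at day 1. In collagen processing, 2 of 17 were called at day 1, or 11.8% against the same 20.5%. Serpinh1, the collagen chaperone of the endoplasmic reticulum, read -0.36 and -0.57 at day 0 and 1.29 and 0.69 at day 1, a change of 1.46 (limma adjusted p = 0.00978). P4hb, a disulfide isomerase that is also a subunit of collagen prolyl hydroxylase, had a fitted ratio of 1.19 at day 1 and a change of 0.83. S100a4 and Serpinh1 were, like Vim, below 0 on both day 0 arrays and above 0 on the arrays of day 0.5 and day 1.

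Of 15 niche signals, 1 was called at day 1, or 6.67% against 20.5% of all genes. This was the BMP family ligand Bmp3 at 1.14, whose day 0 arrays read -0.46 and 0.52. Of 16 smooth muscle genes, 2 were called at day 1, or 12.5% against the same 20.5%. Myosin light chain kinase (Mylk) read -0.34 and -0.47 at day 0 and 0.68 and 0.65 at day 1, a change of 1.07 (limma adjusted p = 0.0056). Beta-tropomyosin (Tpm2) had a fitted ratio of 0.68 at day 1 and a change of 0.71, but 1 of its 3 probes, mMA033958, changed by 0.01 where the others changed by 0.93 and 1.20. Quantile normalization left 4 of the 74 genes called at day 1.

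Other intermediate filament genes include the keratins of epithelia and the nuclear lamins. Of 17, limma called 6 at day 1, or 35.3% against 20.5% of all genes, and 4 with arrays scaled or quantile normalized. Keratins Krt20, Krt23, Krt19 and Krt18 were higher in null crypts, at 1.43, 1.37, 0.84 and 0.51. Lamins Lmnb1 and Lmnb2 were lower, at -0.91 and -0.43. The change between day 0 and day 1 was called in 6 as well (against 8.39% of all genes), and in 2 with either of these normalizations, with Krt19 at 1.34, Krt20 at 1.23, Krt23 at 1.00, Krt18 at 0.97, Lmna at 0.80 and Lmnb1 at -0.70. Krt19, the keratin with the largest change, read -0.57 and -0.43 at day 0, 0.75 and 0.61 at day 0.5 and 0.95 and 0.74 at day 1. Under the replicate block, Krt19 at -0.50 and Lmna at -0.45 were also called at day 0, and Krt19 at 0.75 at day 0.5. With LiCl, Lmna was called at 0.74 and Krt19 at 0.63, or -0.74 and -0.63 with the sign turned. The day 1 count was 2 without day 1 replicate 1, and the count for the change was 0 without either day 0 array or day 1 replicate 1 and 2 without day 1 replicate 2. With LiCl, 1 was called when either day 0.5 array was left out and 0 when any other array was.

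Of 18 genes of the motile cytoskeleton, 10 were called at day 1, 7 higher and 3 lower, or 55.6% against 20.5% of all genes. With arrays scaled 5 were called, and with quantile normalization 4. Annexin A2 (Anxa2) stood at 1.00, the actin-binding calponin Cnn2 at 0.88, S100a11 at 0.85 and Cnn3 at -0.81. Galectin 1 (Lgals1), a lectin that stromal cells and leukocytes secrete, was called at day 0, at -1.55, and read -0.06 and -0.07 at day 1, a change of 1.48. Changes of 1.21 in Cnn2, 0.85 in Anxa3, 0.82 in the actin crosslinker Actn4 and -0.72 in Cnn3 were also called. The change was thus called in 5 genes, or 27.8% against 8.39% of all genes, but in 2 with scaling and 1 with quantile normalization. The Actn4 probe mMA033711 changed by -0.04 where the other 3 changed by 0.78 to 1.48, and the Cnn3 probes changed by -1.08 and -0.35. The block gave 3 calls at day 0, Anxa2 at 0.63 and S100a11 at 0.53 besides Lgals1, and 4 with LiCl. Without day 1 replicate 1 the day 1 count was 2, and without replicate 2 it was 3. The count for the change was 0 without either day 0 array or day 1 replicate 2, and 1 without day 1 replicate 1. The day 0 call was lost without either day 0 array. Of 14 regulators and markers of epithelial to mesenchymal transition, 1 was called at day 1, the tight junction protein occludin (Ocln) at 0.64, and 0 without either day 1 array. The 1 call at day 1 is 7.14% of that list, against 20.5% of all genes. With the replicate block 2 were called at day 0, Ocln at 0.51 and the TGF-beta receptor Tgfbr2 at 0.46, 2 at day 1 and 1 with LiCl.

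Markers of other cells that make vimentin were read beside it. Their lists too were made with earlier results of these data known, so the shares of calls are a description. Of 14 leukocyte genes, 6 were called at day 0, all lower in null crypts, or 42.9% against 2.23% of all genes. The lysosomal protein Laptm5 stood at -1.45, lysozyme Lyz2 at -1.30, the CD3 chains of the T cell receptor complex at -1.25 (Cd3g) and -0.68 (Cd3e), the lymphocyte antigen Cd52 at -0.94 and the actin regulator Coro1a at -0.73. The list's median on the day 0 arrays was -0.33 and -0.27, on the arrays of day 0.5 0.02 and 0.03, on those of day 1 -0.01 and -0.08, and with LiCl -0.02 and 0.01. The leukocyte median was thus low where Vim was low at day 0, and it was near 0 where Vim was high at day 1. Vim was chosen on its day 0 and day 1 values, so this is a description only. At day 1, 2 genes were called, Laptm5 at 0.90 and Lyz2 at -1.30, or 14.3% against 20.5% of all genes. The change was called in 4, or 28.6% against 8.39% of all genes. These were Laptm5 at 2.35, Cd3g at 1.26, Cd52 at 0.90 and Coro1a at 0.75. The replicate block gave 1 call at day 0.5, Lyz2 at -1.20. The 4 Lyz2 probes disagreed, reading from -3.37 to 0.05 at day 0. Lyz2 also read -0.82 and -1.62 at day 0.5 and -1.34 and -1.27 at day 1, so it did not follow the list's median. With either day 0 array left out, 0 were called at day 0 and for the change, and with either day 1 array left out 1 was called for the change. At day 1, 0 were called without day 1 replicate 1 and 1 without replicate 2 or without either day 0 array. The part of leukocyte RNA in the Vim ratio was not tested.

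Limma called 0 of 11 endothelial, 5 pericyte, 3 glial and 3 interstitial cell genes in any of the 5 comparisons, and at an unadjusted p under 0.05 it passed at most 2 endothelial genes, at day 0, and at most 1 glial and 1 interstitial cell gene. With the replicate block it called 1 endothelial gene at day 1, Esam at -0.33, and 1 interstitial cell gene at day 0, Ano1 at 0.59. Without the block it called 0 genes of any list at day 0.5, and at an unadjusted p under 0.05 the highest number outside the stromal lists was 3, in the filament, motile cytoskeleton and epithelial lists. Of 4 mesothelial genes, mesothelin (Msln) was called at day 1 at 1.17, with day 0 arrays at -0.26 and 0.26, and the call was lost without day 1 replicate 1. Of 2 red cell genes, the globin Hba-a1 was called at day 0 at -0.60, a call lost without any single array except those with LiCl. Over all genes, 20.5% were called at day 1 and 2.23% at day 0. Of 9 epithelial genes, 5 were called at day 1, or 55.6%. They were the brush border protein villin (Vil1) at 1.32, the tight junction protein Cldn3 at 0.83, and the stem cell marker Lgr5 at -1.09, besides Krt19 and Krt18. That count was 3 with scaling, quantile normalization or without day 1 replicate 2, and 2 without replicate 1. Blocking by replicate gave 1 call at day 0, Krt19, and 2 at day 0.5, Krt19 and Lgr5. The part of these cells in the Vim ratio was not tested.

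**Figure D3:**
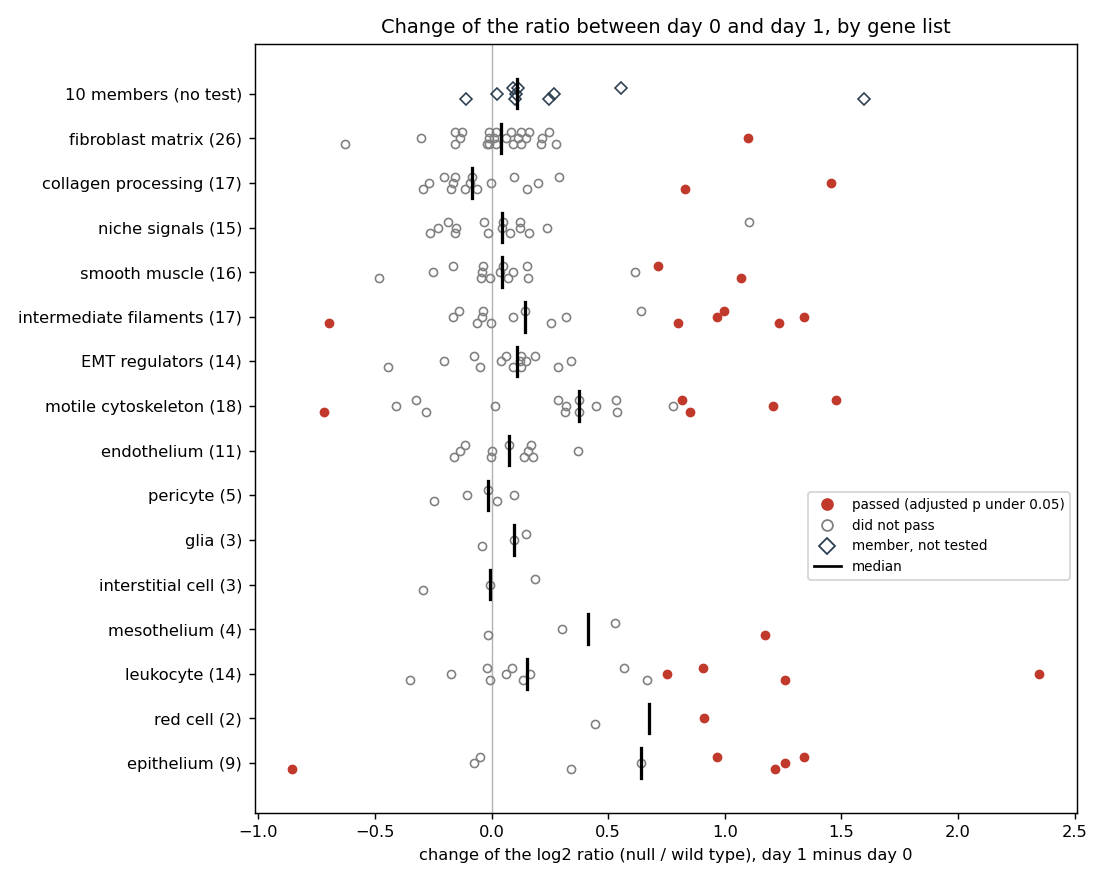
Difference of the log2 ratio (null over wild type), day 1 minus day 0 (horizontal axis), for each gene of the 10 members and the 15 lists; filled points passed at an adjusted p under 0.05, open points did not, diamonds are members without a test and bars are medians. Vim lies at 1.60 and Dcn at 0.55, while the medians of the 4 stromal lists lie between -0.09 and 0.04.

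The genes whose ratios lay nearest to Vim, by root mean square distance over the 8 arrays, were Bag3 (0.213), Deptor (0.222), Slc20a1 (0.224), B4galnt1 (0.230), Klhl13 (0.238), Capn5 (0.252), Wbp2 (0.257) and Myo7b (0.264), each measured by 1 probe. Bag3 is a co-chaperone, Deptor an inhibitor of mTOR, Slc20a1 a phosphate transporter and Myo7b a myosin of the brush border. Bag3 read -0.65 and -0.70 at day 0, 0.24 and 0.41 at day 0.5, 0.94 and 1.36 at day 1, and -0.09 and 0.04 with LiCl. All 8 genes were below 0 on both day 0 arrays and above 0 on the arrays of day 0.5 and day 1. These signs follow from the choice of genes by distance to Vim on the same arrays, and are a description only. The median distance over all genes was 0.706. Of the other members Dcn was nearest at 0.61, rank 2326, and the remaining members ranked from 4527 to 8346.

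**Figure D4:**
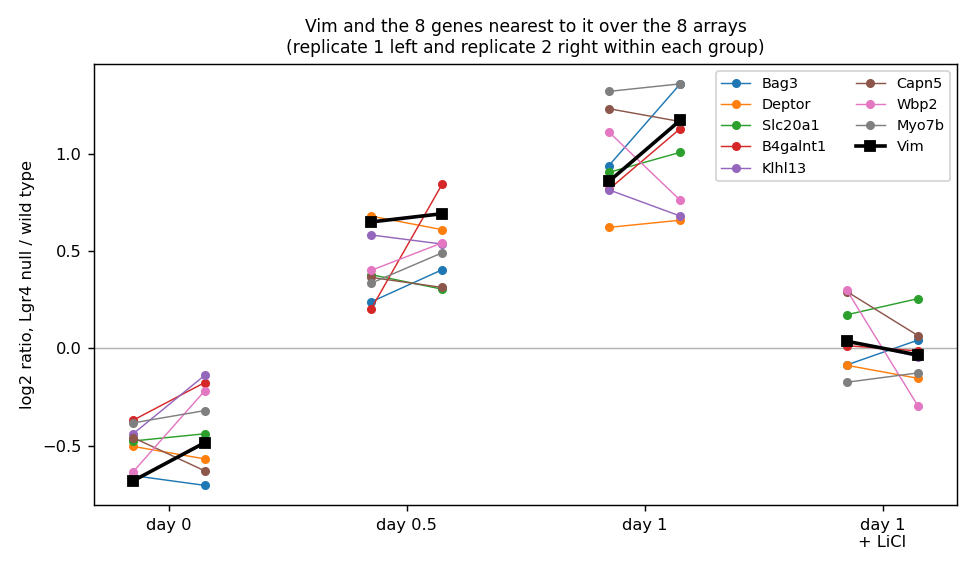
Log2 ratio (null over wild type, vertical axis) of Vim (black squares) and the 8 genes nearest to it on each array, by group; lines join the 2 arrays of a group. All 9 genes lie below 0 at day 0 and above 0 at day 0.5 and day 1, which follows from the choice by distance to Vim on these arrays.

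Over the whole series, arrays of the same group correlated at 0.308 to 0.737 and arrays of different groups without LiCl at 0.154 to 0.490. The SD of the ratios was 0.441 to 0.473 on the day 1 arrays and 0.247 to 0.335 on the others. The number of arrays limits the precision of every value.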

How the data were processed

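Per the labels' protocols, RNA was isolated with the MirVana kit, copied into aminoallyl aRNA, coupled to Cy5 or Cy3 and put on MEEBO long oligonucleotide arrays. The authors deposited log2 values (base assumed), a channel ratio for each probe of an array. How they corrected background and normalized is not given in the sources used here. No intensities were used, so signal over background is unknown.

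Of 38467 probes, 22941 had 1 gene symbol, 0 several and 15526 none. Control-series probes (636 with a gene name) were left out, and 22305 probes of 15123 genes were averaged by gene. Array medians were set to 0. The model, in limma 3.58.1 (R 4.3.3), took the 8 arrays together with 4 group means and a dye term, with eBayes and Benjamini-Hochberg adjustment over all genes at 0.05. The fit was run on simulated data with independent noise, no dye effect and no link between arrays. That run cannot show the error rates in these data. No array was turned by its dye, because arrays of a group with opposite dyes correlated above 0. The members and gene lists were chosen with earlier results of these data known. Named are all members, every list gene that passed (4 with the largest ratio where over 6 passed), and the 8 genes nearest to Vim. Replicate numbers come from the titles. Deviations of arrays with the same number correlated at 0.210 to 0.278 over 6 pairs, so the numbers may pair the arrays. The main model has no term for this pairing, and calls given without mention of the replicate block ignore it. The block, run as an alternative, includes it, and at day 0.5 it called 237 genes where the main model called 66. Alternatives changed the dye term, replicate block, scaling, centring, probe rule, LiCl arrays and each array in turn. Some listed genes, among them Col6a3, Fbn1, Efemp2, Adamts2, Myl9, Smad7, Csf1r, Cd68 and Olfm4, were not analysed here.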

Additional observations from a re-analysis of the deposited data

Results flagged for a closer look

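The ratio of null over wild type differed between day 0 and day 1 for the genes below. For Vim, the day 1 mean lay 1.60 above the day 0 mean, with both day 0 arrays below 0 and both day 1 arrays above it. For Dcn it lay 0.55 above, in the same way. Neither difference was tested, because the choice of these genes used it.

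For the listed genes that are not members, limma tested the change itself. Among genes of the stromal lists it was 1.46 in Serpinh1, 1.10 in S100a4, 1.07 in Mylk, 0.83 in P4hb and 0.71 in Tpm2. Which cells made this RNA was not tested. Among filament and cytoskeleton genes it was 1.48 in Lgals1, 1.34 in Krt19, 1.23 in Krt20, 1.21 in Cnn2, 1.00 in Krt23, 0.97 in Krt18, 0.85 in Anxa3, 0.82 in Actn4, 0.80 in Lmna, -0.70 in Lmnb1 and -0.72 in Cnn3. Among markers of other cells it was 2.35 in Laptm5, 1.26 in Cd3g, 1.26 in Cldn3, 1.22 in Vil1, 1.17 in Msln, 0.91 in Hba-a1, 0.90 in Cd52, 0.75 in Coro1a and -0.86 in Lgr5.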

How the results depend on the processing

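The Vim ratio at day 0.5 kept its sign under all 18 alternatives. It no longer passed with arrays scaled to equal spread (0.71), without the LiCl arrays (0.80), with the probe of the largest SD (0.64) or with control-series probes kept (0.40), where 0 members were called. Leaving out 1 array gave 0.74 to 0.80, with 0 members called, and for Vim with LiCl -0.09 to 0.09. With the replicate block the Vim value was 0.755 (limma adjusted p = 0.0313). Of 350 values of members under alternatives, 40 had the other sign, and 0 of these passed.

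For the 74 genes of the stromal lists, the count at day 0 was 1 with quantile normalization or the LiCl sign turned. At day 0.5 it was 2 without a dye term, with the replicate block, with day 0.5 replicate 2 taken as Cy3 or with the LiCl sign turned, and 1 with quantile normalization or without the LiCl arrays. At day 1 it was 4 with quantile normalization. With LiCl it was 2 without a dye term or with replicate 2 as Cy3, 3 with the replicate block, scaling, quantile normalization or the sign turned, and 0 with the largest-SD probe. For the change it was 2 with scaling and 3 with quantile normalization. Leaving out 1 array gave 0 to 0 at day 0, 0 to 1 at day 0.5, 2 to 8 at day 1, 0 to 0 with LiCl and 0 to 5 for the change.

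Over all genes, 337 were called at day 0, 66 at day 0.5, 3103 at day 1, 390 with LiCl and 1269 for the change. With the replicate block the counts were 610 at day 0, 237 at day 0.5, 922 with LiCl and 1964 for the change. With scaling they were 42 at day 0.5, 1864 at day 1, 1498 with LiCl and 440 for the change. With quantile normalization they were 123 at day 0.5, 1222 at day 1, 801 with LiCl and 239 for the change. With the LiCl sign turned they were 525 at day 0, 238 at day 0.5 and 743 with LiCl. At day 0.5 the count was 341 without a dye term and 321 with replicate 2 as Cy3. Leaving out 1 array gave 26 to 305 at day 0, 9 to 50 at day 0.5, 912 to 3270 at day 1, 4 to 301 with LiCl and 110 to 1358 for the change.

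Of 60 results for named list genes, 20 no longer passed with scaling, 23 with quantile normalization and 7 with the largest-SD probe, and 0 did so with the replicate block. The block changed no call of a member. Among the list genes it lost 0 calls and gained 31 in 25 genes, among them Bmp3 (1.10), Krt8 (0.64) and Cd3e (0.67) for the change and Serpinh1 (-0.63) and Mylk (-0.49) with LiCl. Turning the LiCl sign gave -0.63 for Krt19, -0.74 for Lmna and 0.63 for P4hb. Without a day 0 or day 1 array, 38 to 43 of the 60 no longer passed. The cause of these shifts was not tested. With 2 arrays a group and no intensities, signal over background is an unknown limit on every ratio.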
